A study of Mus musculus with 5 samples.

Results

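Transcripts of mitosis, cytokinesis and DNA replication genes were examined in adult mouse cardiomyocytes that had received a mixture of reprogramming factors. The members were 57 genes chosen by name with earlier results of these data known. They were 37 genes for mitosis and cytokinesis and 20 for DNA replication. A gene was measured where its symbol stood in the deposited table of 12446 genes. Of the 57, 53 were listed, namely 33 of the 37 mitosis genes and 20 of the 20 replication genes. Plk1, Aurkb, Bub1 and Kif23 had no row and were not analysed here. Every listed gene had at least 1 CPM (reads scaled to library size) in at least 2 libraries, and a gene hardly read in controls could reach that through OSKM-CMs alone.

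OSKM-CMs comprised 3 libraries, numbered 1, 2 and 3, and Control-CMs 2 libraries, numbered 3 and 5. For OSKM-CMs, adeno-associated viruses (AAV9) carrying Oct4 with a His6 tag, Sox2 with a Flag tag, Klf4 with an HA tag and Myc with a V5 tag were injected together, each at 2.5e+10 virus genomes per gram of body weight. For Control-CMs, a virus carrying blue fluorescent protein was injected at 1.0e+11 virus genomes per gram. All mice were male C57BL/6, injected into the thoracic cavity at 8 weeks and listed as 12 to 14 weeks old, and every vector used the cardiac troponin T promoter, which is active in cardiomyocytes. Cardiomyocytes were isolated from the hearts and their RNA was sequenced in bulk. Nothing in the labels ties a library to a mouse of its own, so p-values reflect the spread among these libraries, which may be technical.

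Adult mammalian cardiomyocytes are known for having largely left the cell cycle after birth. Cells that do cycle copy their DNA in S phase with a helicase built on the MCM ring, polymerases, the PCNA clamp and a supply of nucleotides. They then enter mitosis when cyclins activate Cdk1, and divide after kinetochores, spindle motors and a contractile ring have separated the chromosomes and the cytoplasm. Many mitotic genes are known to share promoter elements, among them the cell cycle genes homology region with the core TTTGAA and the CCAAT box bound by NF-Y. Replication genes often carry sites for E2F factors instead.

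Promoters are shown for 3 members of each class. They are those with the largest called log2 fold changes among members with a promoter entry in the table used. Ccna2, which had the second largest of the mitosis class, had no entry. They run 5′ to 3′ on the gene's strand, from 250 bases before to 50 bases after its start, and come from RefSeq (build GRCm38.p6), with capitals marking matches, on either strand, to TTTGAA of the homology region, the CCAAT box of NF-Y, the E-box CACGTG, or an E2F-type motif, spelled TTTGGCGC in its first form and TTTCCCGC in its second. The first 3 belong to the mitosis class and the last 3 to replication. The coordinates are chr9:22389157-22389456 on the minus strand for Anln, chr8:22185770-22186069 on the minus strand for Ckap2, chr11:99024140-99024439 on the minus strand for Top2a, chr6:88898731-88899030 on the minus strand for Mcm2, chr12:24708004-24708303 on the plus strand for Rrm2 and chr16:18811923-18812222 on the minus strand for Cdc45.
Anln: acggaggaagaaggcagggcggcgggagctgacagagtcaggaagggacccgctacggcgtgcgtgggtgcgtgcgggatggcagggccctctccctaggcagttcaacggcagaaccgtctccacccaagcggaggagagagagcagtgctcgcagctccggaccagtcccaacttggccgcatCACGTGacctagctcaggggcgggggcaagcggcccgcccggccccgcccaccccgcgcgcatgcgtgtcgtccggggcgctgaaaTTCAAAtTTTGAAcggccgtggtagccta
Ckap2: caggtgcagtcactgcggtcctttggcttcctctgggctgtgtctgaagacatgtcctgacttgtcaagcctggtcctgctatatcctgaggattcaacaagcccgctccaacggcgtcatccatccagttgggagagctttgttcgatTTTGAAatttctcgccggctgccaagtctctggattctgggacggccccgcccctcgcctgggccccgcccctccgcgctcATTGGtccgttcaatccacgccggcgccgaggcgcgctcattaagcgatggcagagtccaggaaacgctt
Top2a: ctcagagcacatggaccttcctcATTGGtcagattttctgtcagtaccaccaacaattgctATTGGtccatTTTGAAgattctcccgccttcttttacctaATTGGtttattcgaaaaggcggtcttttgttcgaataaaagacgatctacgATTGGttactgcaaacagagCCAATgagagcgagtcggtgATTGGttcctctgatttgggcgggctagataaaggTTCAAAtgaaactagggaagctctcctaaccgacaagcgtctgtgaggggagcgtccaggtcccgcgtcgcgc
Mcm2: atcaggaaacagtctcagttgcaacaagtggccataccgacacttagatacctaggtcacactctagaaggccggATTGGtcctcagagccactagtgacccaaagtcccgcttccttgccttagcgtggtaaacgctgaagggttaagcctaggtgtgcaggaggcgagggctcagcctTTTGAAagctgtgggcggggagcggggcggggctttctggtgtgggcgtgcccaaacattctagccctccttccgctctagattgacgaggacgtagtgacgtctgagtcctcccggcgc
Rrm2: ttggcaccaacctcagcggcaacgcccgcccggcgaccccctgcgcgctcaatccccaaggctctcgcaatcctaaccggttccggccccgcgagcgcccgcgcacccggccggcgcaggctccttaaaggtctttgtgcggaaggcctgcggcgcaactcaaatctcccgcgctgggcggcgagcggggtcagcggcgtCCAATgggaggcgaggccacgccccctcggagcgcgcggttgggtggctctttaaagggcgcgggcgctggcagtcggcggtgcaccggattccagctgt
Cdc45: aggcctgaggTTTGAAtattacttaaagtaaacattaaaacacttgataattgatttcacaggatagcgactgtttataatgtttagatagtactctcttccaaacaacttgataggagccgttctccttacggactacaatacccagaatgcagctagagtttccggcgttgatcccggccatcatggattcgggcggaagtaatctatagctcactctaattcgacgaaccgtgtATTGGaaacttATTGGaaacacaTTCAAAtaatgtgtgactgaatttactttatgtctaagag

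Positions are counted from the start of the gene, with those before it negative. Anln held TTTGAA in both orientations side by side just after the start, the first of them at position 22 and the second at position 29. Top2a held 6 CCAAT boxes and a TTTGAA on the reverse strand at position -23. Over the table, 49 of the 57 members had an entry, with 55 promoters. TTTGAA stood in 28 of 34 mitosis promoters (82.4%) and in 2 of 21 replication promoters (9.52%), beside 17.9% of all 32851 promoters. The 2 replication promoters were those of Mcm2 and Cdc45, both of which rose, while Mcm3 and Rrm2 rose without TTTGAA in theirs. CCAAT stood in 29 of 34 mitosis promoters (85.3%) and 17 of 21 replication promoters (81.0%), beside 37.4% of all. The E2F-type motifs stood in 2 of 34 mitosis promoters (5.88%) and 7 of 21 replication promoters (33.3%), beside 1.56% of all. CACGTG stood in 1 of 34 mitosis promoters (2.94%), that of Anln, and in 4 of 21 replication promoters (19.0%), beside 7.15% of all. Among mitosis promoters 26 of 37 TTTGAA matches (70.3%) began within 50 bases of the start, as did 25.3% of the 6737 matches in all promoters. Within the mitosis class TTTGAA was found in 17 of the 20 genes called higher that had a promoter entry and in 6 of the 8 other listed genes. Matches of different motifs shared bases 1 time in the member promoters. A match is a string of letters, and no test was made of these shares.

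Reads over the listed genes totalled from 2691796 to 3861805 per library, so that 3 reads, the limit that 0 reads allows, came to 0.777 to 1.11 CPM. Intervals and floors cover counting error only. Transcripts of the delivered factors matched the labels. Pou5f1 (Oct4) had 344, 262 and 266 reads in OSKM-CMs replicates 1, 2 and 3, against 0 and 0 in Control-CMs replicates 3 and 5, and Sox2, Klf4 and Myc were also higher in each OSKM library. As the check of the labelled cell type, all 10 cardiomyocyte markers were listed, and their CPM after TMM scaling (scaled CPM) summed to 72739, 81612 and 67888 scaled CPM in OSKM-CMs, against 126002 and 134470.3 in Control-CMs. Of these markers 8 of 10 fell, among them Ryr2, Pln and Atp2a2, and 1 (Mybpc3) rose, beside 12.7% of all genes called lower and 14.8% higher. Mitochondrial genes took from 9.76% to 11.1% of the reads in OSKM-CMs and from 21.2% to 24.7% in Control-CMs, and the part of this in the results was not tested. Levels below are RPKM (reads scaled to gene length and to library size), rescaled with TMM factors, always for OSKM-CMs replicates 1, 2 and 3 and Control-CMs replicates 3 and 5. A call is a Benjamini-Hochberg adjusted p below 0.05 in limma over all 12446 genes, fitted on log2(RPKM + 1), a scale that understates the change of low genes.

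Most listed mitosis and cytokinesis genes were higher in OSKM-CMs, among them the cyclins A2, B1 and B2, Cdk1, Top2a, Mki67 and Anln, whereas 16 of the 20 replication genes did not pass the test. Of the 33 listed mitosis genes 24 rose, 2 fell (Cenpf and Spc24) and 7 did not pass. Of the 20 replication genes 4 rose (Mcm2, Cdc45, Mcm3 and Rrm2), 0 fell and 16 did not pass in limma, and 1 (Rpa1) was lower at an unadjusted p below 0.05 and with limma voom on whole reads. Over all listed genes 14.8% were called higher and 12.7% lower. The median log2 fold change was 0.73 over the mitosis genes, 0.22 over the replication genes and 0.03 over all genes. For the 3 mitosis genes without control reads, the controls together were also given 3 reads. The mitosis median stayed at 0.73, as it had to, since these 3 genes already lay below it and such reads can only lower them. These counts describe the 2 classes, and the difference between them was not tested. Bulk RNA does not tell more cells of a type apart from more RNA per cell. The mitosis rises numbered 14 without OSKM-CMs replicate 3, 15 without Control-CMs replicate 3 and 13 without Control-CMs replicate 5, and the replication rises numbered 1 without OSKM-CMs replicate 2, 1 without OSKM-CMs replicate 3 and 0 without Control-CMs replicate 3 or without Control-CMs replicate 5. Without TMM factors, on library totals alone, 27 mitosis and 7 replication genes were called higher and 0 of either lower, but the median over all genes then moved to 0.33 and the calls over all genes went to 4149 higher and 683 lower, against 1843 and 1583 with TMM.

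The table's entry rule bears on the mitosis count. In both controls, 11 of the 33 mitosis genes but 17 of the 20 replication genes had at least 1 CPM. Among the 11 mitosis genes 6 rose and 2 fell, with a median log2 fold change of 0.47, and among the 17 replication genes 4 rose and 0 fell, with a median of 0.22. Among all 11430 genes that met this in both controls 13.0% were called higher and 13.8% lower, with a median of -0.01. The other 18 of the 24 rises were of genes that one or both controls read below 1 CPM, and such a gene needed at least 1 OSKM library at 1 CPM to be listed. They came from 22 such mitosis genes, beside 352 of all 1016 such genes called higher. Read depth behind the classes was unequal as well, with a median of 5 control reads over both libraries for a mitosis gene and 44.5 for a replication gene.

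The classes also differed in summed level. Mitosis genes together took 253, 344 and 286 scaled CPM in OSKM-CMs, against 150 and 148 in Control-CMs. Every OSKM library was thus above both controls, and the mean was 294 ± 46.0 (SD, n = 3) in OSKM-CMs and 149 ± 1.75 (SD, n = 2) in Control-CMs, 1.97-fold. The 11 genes with at least 1 CPM in both controls gave 189 ± 23.5 in OSKM-CMs and 137 ± 2.06 in Control-CMs, 1.38-fold. Replication genes took 263, 295 and 309 in OSKM-CMs, against 282 and 269 in Control-CMs. Here the groups overlapped, with means of 289 ± 23.6 in OSKM-CMs and 275 ± 8.68 in Control-CMs, 1.05-fold, a difference smaller than the SD of the OSKM libraries. On library totals alone the 2 folds were 2.63 and 1.40.

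**Figure D1:**
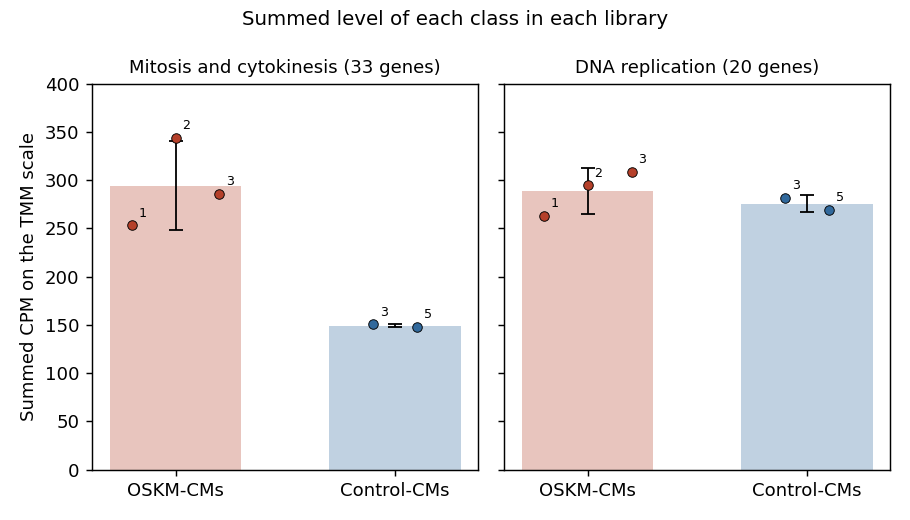
Summed CPM on the TMM scale over the listed mitosis and cytokinesis genes and the listed replication genes, with bars for group means, black lines for the SD and a point per library marked with its replicate number. The mitosis sums lie between 253 and 344 in OSKM-CMs and at 150 and 148 in Control-CMs, whereas the replication sums of both groups overlap.

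Counted by separation, all 3 OSKM libraries were above both controls for 29 of the 33 mitosis genes and 7 of the 20 replication genes, as they were for 29.6% of all genes. All 3 were below both controls for 2 mitosis genes and 1 replication gene (Rpa1), as for 26.5% of all genes. These shares are not alike in how genes came to be listed. One or both controls read below 1 CPM for 22 of the 33 mitosis genes, 3 of the 20 replication genes and 1016 of all 12446 genes. Such a gene needed at least 1 OSKM library at 1 CPM to be listed, which favours OSKM libraries above the controls. The authors' deposited table, at an FDR below 0.05, called 24 mitosis genes higher and 2 lower, and 4 replication genes higher and 1 lower, where it called 16.4% of all genes higher and 15.4% lower. The authors' deposited table called Ncapg and Spc25 higher, which limma did not, and did not call Bub3 or Tpx2, which limma did.

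**Figure D2:**
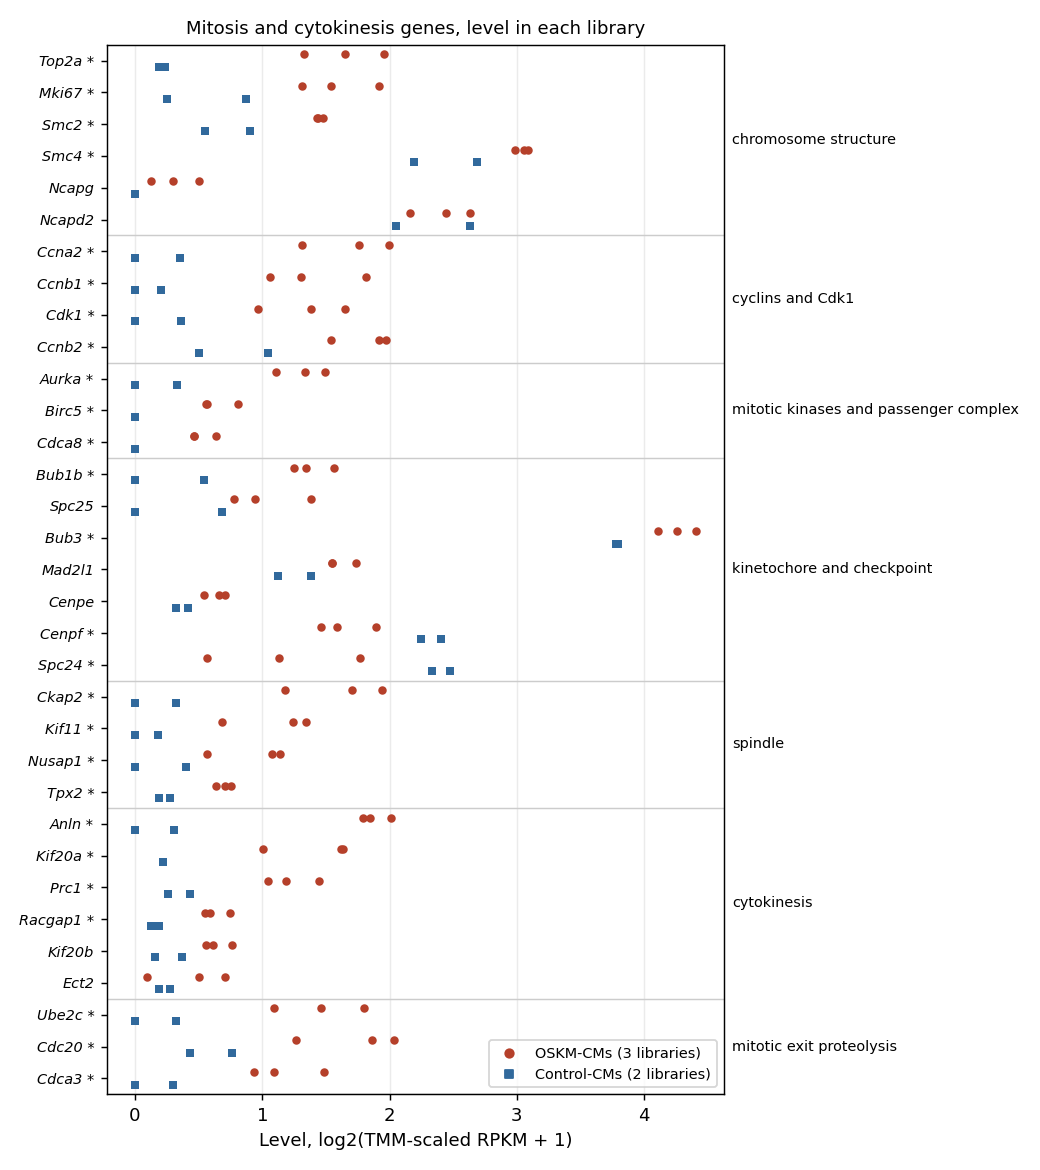
Level of each listed mitosis and cytokinesis gene in every library, as log2(TMM-scaled RPKM + 1), grouped by role, with OSKM-CMs as red circles above Control-CMs as blue squares and an asterisk beside genes called at an adjusted p below 0.05. Red circles stand right of both blue squares for 29 of the 33 genes, and left of them for Cenpf and Spc24.

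Among cyclins and Cdk1, which drive entry into mitosis, all 4 listed members rose. All 4 were read below 1 CPM in one or both controls, where 352 of all 1016 such genes were called higher. Ccna2 (ENSMUSG00000027715.3), cyclin A2 of S phase and early mitosis, was at 1.48, 2.38 and 2.98 RPKM in OSKM-CMs, against 0 and 0.278 in Control-CMs. Its 74 reads in OSKM-CMs, against 3 in Control-CMs, gave a depth-scaled ratio of 16.5 (95% exact counting interval 5.43 to 81.8), with limma log2 fold change 1.51, SE 0.24, adjusted p = 0.00384. Ccnb1 (ENSMUSG00000041431.10), the cyclin B1 that binds Cdk1, was at 1.47, 2.51 and 1.08 RPKM in OSKM-CMs, against 0.153 and 0 in Control-CMs. The ratio of reads was 22.1 (95% exact counting interval 5.87 to 186), with limma log2 fold change 1.29, SE 0.24, adjusted p = 0.00712. Cdk1 (ENSMUSG00000019942.6), the mitotic kinase itself, was at 1.61, 2.15 and 0.950 RPKM in OSKM-CMs, against 0 and 0.283 in Control-CMs. Each OSKM library stood above both controls for these 3 genes, although 1 control had 0 reads for each. The ratio for Cdk1 was 11.1 (95% exact counting interval 3.60 to 55.8), with limma log2 fold change 1.15, SE 0.24, adjusted p = 0.0107, a call that was lost without Control-CMs replicate 3 (adjusted p = 0.0672). Ccnb2, cyclin B2, averaged 2.54 ± 0.549 RPKM in OSKM-CMs and 0.739 ± 0.452 in Control-CMs (limma log2 fold change 1.04, SE 0.24, adjusted p = 0.0160), and its call was lost with limma voom, without OSKM-CMs replicate 3 and without Control-CMs replicate 3. Ccnb1 and Ccnb2 have annotated pseudogenes in the genome, and how reads shared with them were counted is not stated.

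Among chromosome structure genes 4 of the 6 listed members rose. Top2a (ENSMUSG00000020914.10), the topoisomerase that untangles replicated DNA, was at 1.51, 2.87 and 2.13 RPKM in OSKM-CMs, against 0.142 and 0.180 in Control-CMs. It had 42, 81 and 59 reads in OSKM-CMs, against 4 and 5 in Control-CMs, and its mean level was 13.5-fold higher (limma log2 fold change 1.43, SE 0.22, adjusted p = 0.00317). Mki67 (ENSMUSG00000031004.7), the Ki-67 protein that coats mitotic chromosomes, was at 1.49, 2.77 and 1.91 RPKM in OSKM-CMs, against 0.831 and 0.194 in Control-CMs. The lowest OSKM library was above the higher control, but the 2 controls differed widely from each other, with 26 and 6 reads. Mki67 was 4.02-fold higher with limma log2 fold change 1.03, SE 0.26, adjusted p = 0.0241, and it did not pass without OSKM-CMs replicate 2, without OSKM-CMs replicate 3 or without Control-CMs replicate 5. Smc2 (ENSMUSG00000028312.12), the condensin core ATPase, was at 1.70, 1.79 and 1.70 RPKM in OSKM-CMs, against 0.868 and 0.467 in Control-CMs. Its OSKM libraries lay close together and above both controls (limma log2 fold change 0.72, SE 0.19, adjusted p = 0.0249), and the call held without Control-CMs replicate 3 and was lost when any other library was left out. The partner Smc4 averaged 7.24 ± 0.302 RPKM in OSKM-CMs and 4.51 ± 1.34 in Control-CMs (limma log2 fold change 0.60, SE 0.18, adjusted p = 0.0434), and its call was lost for the same 4 libraries. Of the non-SMC condensin subunits, Ncapd2 overlapped between groups at 4.37 ± 0.871 RPKM in OSKM-CMs and 4.18 ± 1.45 in Control-CMs, and Ncapg had 2, 5 and 9 reads in OSKM-CMs, against 0 and 0 in Control-CMs, without passing (limma adjusted p = 0.166), whereas limma voom on whole reads and the authors' deposited table called it higher.

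All 3 listed members of the mitotic kinase and passenger role rose, and all 3 were read below 1 CPM in one or both controls. Of all 1016 such genes 352 were called higher. Aurka (ENSMUSG00000027496.9), the spindle pole kinase Aurora A, was at 1.16, 1.53 and 1.81 RPKM in OSKM-CMs, against 0 and 0.257 in Control-CMs. Its ratio of reads was 11.7 (95% exact counting interval 3.01 to 100.4), with limma log2 fold change 1.15, SE 0.19, adjusted p = 0.00461, and it was called in every alternative fitted. Birc5 (ENSMUSG00000017716.8) and Cdca8 (ENSMUSG00000028873.9), survivin and borealin of the chromosomal passenger complex, had no control reads at all. Birc5 had 5, 8 and 5 reads in OSKM-CMs, 4.01-fold higher when the controls together are given the 3 reads that 0 allows. The 95% exact counting interval of its ratio began at 2.94 (limma log2 fold change 0.64, SE 0.15, adjusted p = 0.0157). Cdca8 had 6, 9 and 6 reads, 4.68-fold higher on the same basis, with an interval that began at 3.48 (limma log2 fold change 0.52, SE 0.14, adjusted p = 0.0261). Both rest on few reads. The Birc5 call was lost when Control-CMs replicate 3 or 5 was left out, and the Cdca8 call when any of the 5 libraries was.

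Kinetochore and checkpoint genes moved in both directions, with 2 of the 7 listed members higher and 2 lower. Cenpf (ENSMUSG00000026605.7), a large kinetochore protein of late cell cycle stages, was at 2.00, 2.71 and 1.75 RPKM in OSKM-CMs, against 3.74 and 4.29 in Control-CMs. Every OSKM library was below both controls, against the direction of most of its class (0.537-fold, limma log2 fold change -0.68, SE 0.19, adjusted p = 0.0358). Spc24 (ENSMUSG00000074476.4), a subunit of the NDC80 complex that grips microtubules, was at 0.481, 1.19 and 2.41 RPKM in OSKM-CMs, against 4.04 and 4.56 in Control-CMs. Its OSKM libraries varied widely among themselves, from 2 to 10 reads, and still lay below the controls, which had 17 and 19 reads (limma log2 fold change -1.25, SE 0.33, adjusted p = 0.0281). Neither fall was called on library totals alone. The Cenpf call held when OSKM-CMs replicate 2 was left out and the Spc24 call when OSKM-CMs replicate 3 was, and each was lost when any other library was left out. Spc25, which pairs with Spc24 in that complex, averaged 1.08 ± 0.470 RPKM in OSKM-CMs and 0.303 ± 0.429 in Control-CMs and did not pass (limma adjusted p = 0.0880). Bub1b (ENSMUSG00000040084.8), the checkpoint protein BubR1, was at 1.37, 1.96 and 1.53 RPKM in OSKM-CMs, against 0.453 and 0 in Control-CMs. This rise (limma log2 fold change 1.11, SE 0.22, adjusted p = 0.00807) was called in every alternative fitted, and every OSKM library was above both controls. Bub3, which binds BubR1 and also acts outside mitosis, was the most abundant mitosis member at 18.2 ± 1.98 RPKM in OSKM-CMs and 12.8 ± 0.0849 in Control-CMs (limma log2 fold change 0.47, SE 0.14, adjusted p = 0.0371), a call that held without OSKM-CMs replicate 2 and was lost when any other library was left out. Mad2l1, the checkpoint protein Mad2, averaged 2.06 ± 0.235 RPKM in OSKM-CMs and 1.39 ± 0.302 in Control-CMs, and Cenpe, a kinetochore motor, 0.556 ± 0.0870 RPKM in OSKM-CMs and 0.291 ± 0.0607 in Control-CMs. Neither passed, although every OSKM library was above both controls for both.

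All 4 spindle genes rose, and all 4 were read below 1 CPM in one or both controls, beside 352 of all 1016 such genes called higher. Ckap2 (ENSMUSG00000037725.7), a microtubule-associated protein of the spindle, was at 2.26, 2.84 and 1.26 RPKM in OSKM-CMs, against 0 and 0.250 in Control-CMs. The ratio of reads was 17.0 (95% exact counting interval 4.48 to 145), with limma log2 fold change 1.45, SE 0.26, adjusted p = 0.00556. Kif11 (ENSMUSG00000012443.3), the motor that pushes spindle poles apart, was at 0.610, 1.54 and 1.36 RPKM in OSKM-CMs, against 0 and 0.135 in Control-CMs. OSKM-CMs replicate 1 was well below the other OSKM libraries and still above both controls. The ratio of reads was 17.4 (95% exact counting interval 4.58 to 147), with limma SE 0.22 and adjusted p = 0.0146, and the call was lost without OSKM-CMs replicate 3 and without Control-CMs replicate 3. Nusap1 (ENSMUSG00000027306.9), a protein that bundles spindle microtubules, was at 1.20, 1.11 and 0.484 RPKM in OSKM-CMs, against 0.318 and 0 in Control-CMs. The lowest OSKM library, replicate 3, had 6 reads and the higher control 4 (limma log2 fold change 0.73, SE 0.22, adjusted p = 0.0465). The Nusap1 call held without OSKM-CMs replicate 3 and was lost when any other library was left out and with limma voom. It was also lost with 0.1 or 5 added before logs and with no trend and no robust variance. Tpx2, which activates Aurora A on the spindle, averaged 0.625 ± 0.0652 RPKM in OSKM-CMs and 0.174 ± 0.0502 in Control-CMs (limma log2 fold change 0.47, SE 0.14, adjusted p = 0.0433). Its call was lost with limma voom, with 5 added before logs and when any of the 5 libraries was left out.

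In cytokinesis 4 of the 6 listed members rose, and Anln had the largest log2 fold change of all members on the log2(RPKM + 1) scale. Anln (ENSMUSG00000036777.7), the scaffold of the contractile ring, was at 2.47, 3.03 and 2.60 RPKM in OSKM-CMs, against 0.238 and 0 in Control-CMs. It had 41, 51 and 43 reads in OSKM-CMs, against 4 and 0 in Control-CMs. The OSKM libraries varied little among themselves and stood far above the controls (22.7-fold higher, limma log2 fold change 1.73, SE 0.19, adjusted p = 0.000821). Kif20a (ENSMUSG00000003779.8), a motor of the central spindle, was at 1.01, 2.07 and 2.11 RPKM in OSKM-CMs, against 0.166 and 0.168 in Control-CMs. All OSKM libraries were above both controls, which had 2 reads each (limma log2 fold change 1.20, SE 0.23, adjusted p = 0.00787). Prc1 (ENSMUSG00000038943.9), which bundles microtubules at the midzone, was at 1.07, 1.72 and 1.27 RPKM in OSKM-CMs, against 0.352 and 0.198 in Control-CMs. Prc1 was 4.92-fold higher with no overlap (limma log2 fold change 0.88, SE 0.19, adjusted p = 0.0115), and its call was lost without Control-CMs replicate 5. Racgap1, a subunit of centralspindlin, averaged 0.549 ± 0.116 RPKM in OSKM-CMs and 0.114 ± 0.0331 in Control-CMs (limma log2 fold change 0.47, SE 0.14, adjusted p = 0.0444), a call lost when any of the 5 libraries was left out. Kif20b, a motor of the same family as Kif20a, averaged 0.565 ± 0.116 RPKM in OSKM-CMs and 0.205 ± 0.125 in Control-CMs, and Ect2, which activates RhoA at the cleavage site, 0.372 ± 0.284 RPKM in OSKM-CMs and 0.174 ± 0.0503 in Control-CMs. Neither passed, and for Ect2 the OSKM range of 0.0700 to 0.632 took in both controls.

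Proteolysis at mitotic exit held 3 listed members, and all 3 rose. All 3 were read below 1 CPM in one or both controls, beside 352 of all 1016 such genes called higher. Ube2c (ENSMUSG00000001403.7), the ubiquitin-conjugating enzyme of the anaphase-promoting complex, was at 1.75, 2.47 and 1.13 RPKM in OSKM-CMs, against 0 and 0.250 in Control-CMs. The ratio of reads was 14.4 (95% exact counting interval 3.74 to 122), with limma log2 fold change 1.29, SE 0.24, adjusted p = 0.00688. Cdc20 (ENSMUSG00000006398.7), an activator of that complex, was at 1.40, 3.10 and 2.63 RPKM in OSKM-CMs, against 0.692 and 0.349 in Control-CMs. Cdc20 was 4.57-fold higher (limma log2 fold change 1.12, SE 0.27, adjusted p = 0.0177), and its call was lost with limma voom, without OSKM-CMs replicate 3 and without Control-CMs replicate 5. Cdca3 (ENSMUSG00000023505.7), a protein degraded through the same complex, was at 1.14, 1.79 and 0.912 RPKM in OSKM-CMs, against 0 and 0.227 in Control-CMs. Every OSKM library was above both controls for these 3 genes. The ratio for Cdca3 was 11.4 (95% exact counting interval 2.91 to 97.6), with limma log2 fold change 1.02, SE 0.21, adjusted p = 0.0103, and its call was lost without Control-CMs replicate 3. Where the call of a mitosis or replication member was lost on leaving out 1 library, its limma adjusted p lay between 0.0520, for Kif11 without OSKM-CMs replicate 3, and 0.214, for Nusap1 without Control-CMs replicate 5.

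Some members share exon bases with a gene on the opposite strand, and the strand setting of the authors' counting is not given in the sources used here. In the GENCODE M21 annotation of GRCm38 the overlap covered 29.3% of the exon bases of Kif20a, with Cdc23, 22.8% of those of Ube2c, with Tnnc2, 13.4% of Ncapg, with Lcorl, 12.5% of Ccna2, with Exosc9, and 11.1% of Prc1, with Rccd1. Cdc23 averaged 3.10 ± 0.561 RPKM in OSKM-CMs and 4.19 ± 0.406 in Control-CMs, the reverse of Kif20a. Exosc9 averaged 4.80 ± 0.281 in OSKM-CMs and 4.09 ± 0.410 in Control-CMs, and Rccd1 1.46 ± 0.0950 in OSKM-CMs and 1.16 ± 0.512 in Control-CMs. Oip5, which shares 4.24% of the exon bases of Nusap1, averaged 1.53 ± 0.750 in OSKM-CMs and was at 0 in both controls. If strand was not used in the counting, reads in these shared bases cannot be told apart.

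**Figure D3:**
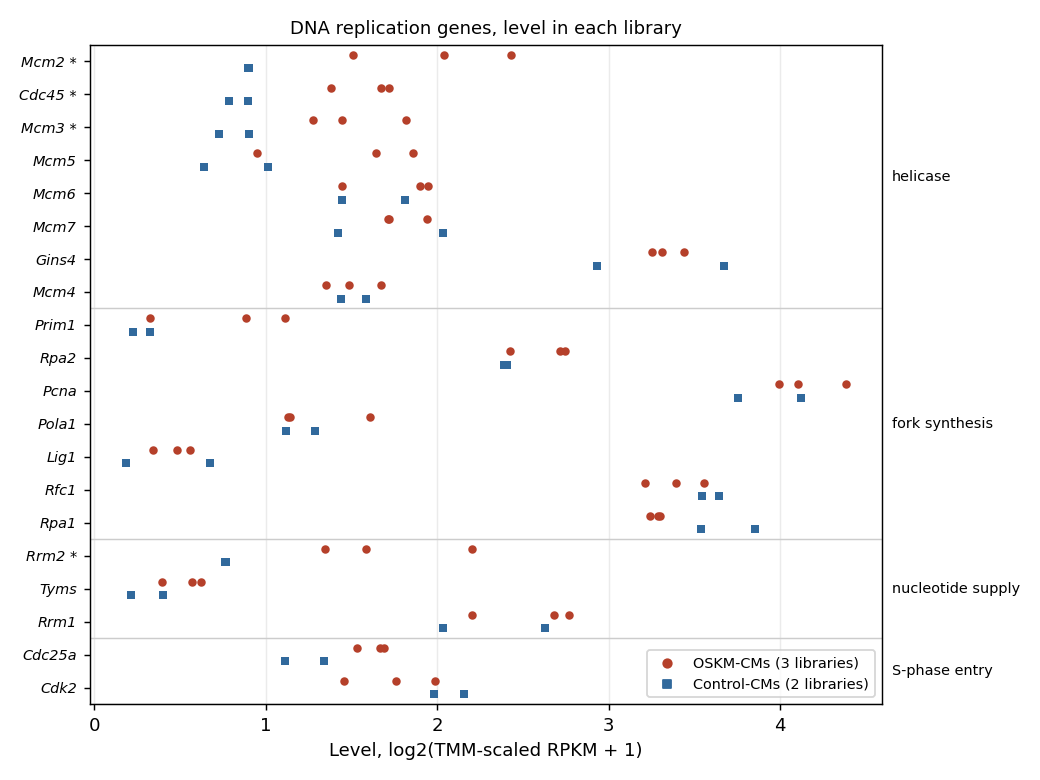
Level of each listed DNA replication gene in every library, as log2(TMM-scaled RPKM + 1), grouped by role, with OSKM-CMs as red circles above Control-CMs as blue squares and an asterisk beside genes called at an adjusted p below 0.05. Mcm2, Cdc45, Mcm3 and Rrm2 have all red circles right of both blue squares, while circles and squares overlap for most other genes.

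Among the 8 helicase genes 3 rose. Mcm2 (ENSMUSG00000002870.7), a subunit of the MCM ring, was at 1.84, 4.40 and 3.11 RPKM in OSKM-CMs, against 0.863 and 0.871 in Control-CMs. It had 19, 46 and 32 reads in OSKM-CMs, against 9 and 9 in Control-CMs (3.60-fold higher, limma log2 fold change 1.09, SE 0.27, adjusted p = 0.0225). Cdc45 (ENSMUSG00000000028.8), which joins the ring to form the active helicase, was at 1.60, 2.30 and 2.19 RPKM in OSKM-CMs, against 0.864 and 0.727 in Control-CMs. The groups did not overlap (limma log2 fold change 0.75, SE 0.19, adjusted p = 0.0243), but limma voom did not call it. Mcm3 (ENSMUSG00000041859.9), another ring subunit, was at 1.42, 1.72 and 2.52 RPKM in OSKM-CMs, against 0.865 and 0.655 in Control-CMs. Here too every OSKM library was above both controls (limma log2 fold change 0.70, SE 0.22, adjusted p = 0.0471), but the adjusted p lay near the threshold. The Mcm3 call was lost with limma voom, with 5 added before logs, at a mean RPKM of at least 1 and when any of the 5 libraries was left out. The Mcm2 call was lost without OSKM-CMs replicate 3 and the Cdc45 call without OSKM-CMs replicate 2 or 3, and both were lost without Control-CMs replicate 3 or 5. The other ring subunits did not pass and overlapped between groups. Mcm4 averaged 1.84 ± 0.325 RPKM in OSKM-CMs and 1.85 ± 0.204 in Control-CMs, and Mcm5 1.89 ± 0.868 RPKM in OSKM-CMs and 0.788 ± 0.323 in Control-CMs. Mcm6 averaged 2.43 ± 0.621 RPKM in OSKM-CMs and 2.11 ± 0.563 in Control-CMs, and Mcm7 was at 2.28, 2.83 and 2.29 RPKM in OSKM-CMs, against 1.68 and 3.09 in Control-CMs. The Mcm4 difference had a 95% interval of -0.45 to 0.43 on the log2 scale, while that of Mcm5 ran from -0.02 to 1.33. Gins4, of the GINS complex that completes the helicase, averaged 9.08 ± 0.675 RPKM in OSKM-CMs and 9.18 ± 3.60 in Control-CMs, with controls at 6.64 and 11.7 on either side of all OSKM libraries.

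Of the 7 genes that act in synthesis at the fork, limma called 0 in either direction. At an unadjusted p below 0.05, as with limma voom, 0 were higher and 1 (Rpa1) was lower. Pcna (ENSMUSG00000027342.7), the sliding clamp that holds polymerases on DNA, was at 14.9, 16.2 and 19.9 RPKM in OSKM-CMs, against 12.5 and 16.4 in Control-CMs. Pcna was the most abundant replication member, and its groups overlapped (limma log2 fold change 0.22, SE 0.17, 95% interval -0.18 to 0.63, adjusted p = 0.374). Annotated pseudogenes of Pcna exist, and 1 of them, Pcna-ps2, was listed at 3.34 ± 0.833 RPKM in OSKM-CMs and 1.46 ± 0.285 in Control-CMs (limma adjusted p = 0.0281). Rpa1, the large subunit of the single-strand binding protein RPA, was at 8.77, 8.82 and 8.45 RPKM in OSKM-CMs, against 13.5 and 10.6 in Control-CMs. Every OSKM library was below both controls, and the difference did not pass (limma log2 fold change -0.42, SE 0.15, adjusted p = 0.0676), whereas limma voom on whole reads and the authors' deposited table called it. Rpa2, the middle RPA subunit, averaged 5.21 ± 0.741 RPKM in OSKM-CMs and 4.28 ± 0.0482 in Control-CMs. Rfc1, the large subunit of the clamp loader, averaged 9.51 ± 1.25 RPKM in OSKM-CMs and 11.1 ± 0.614 in Control-CMs. The polymerase alpha subunit Pola1 averaged 1.48 ± 0.490 RPKM in OSKM-CMs and 1.31 ± 0.191 in Control-CMs, the primase subunit Prim1 0.755 ± 0.463 RPKM in OSKM-CMs and 0.210 ± 0.0607 in Control-CMs and the DNA ligase Lig1 0.379 ± 0.101 RPKM in OSKM-CMs and 0.366 ± 0.328 in Control-CMs. For Prim1 the lowest OSKM library was level with the higher control, with 3, 14 and 10 reads in OSKM-CMs, against 2 and 3 in Control-CMs.

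Of the 3 nucleotide supply genes 1 rose. Rrm2 (ENSMUSG00000020649.5), the small subunit of ribonucleotide reductase that limits its activity to S phase, was at 2.00, 3.60 and 1.54 RPKM in OSKM-CMs, against 0.698 and 0.705 in Control-CMs. It had 17, 31 and 13 reads in OSKM-CMs, against 6 and 6 in Control-CMs, with every OSKM library above both controls (3.39-fold higher, limma log2 fold change 0.94, SE 0.27, adjusted p = 0.0350), though the call held without OSKM-CMs replicate 3 and was lost when any other library was left out. The large subunit Rrm1 averaged 4.94 ± 1.18 RPKM in OSKM-CMs and 4.14 ± 1.47 in Control-CMs, and thymidylate synthase Tyms 0.445 ± 0.114 RPKM in OSKM-CMs and 0.239 ± 0.111 in Control-CMs. Both overlapped between groups. Of the 2 genes of S phase entry, the phosphatase Cdc25a averaged 2.09 ± 0.177 RPKM in OSKM-CMs and 1.34 ± 0.262 in Control-CMs with no overlap and did not pass (limma adjusted p = 0.138), and the kinase Cdk2 averaged 2.36 ± 0.609 RPKM in OSKM-CMs and 3.20 ± 0.356 in Control-CMs (limma adjusted p = 0.270). The intervals were -0.02 to 0.83 for Cdc25a and -0.81 to 0.15 for Cdk2.

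**Figure D4:**
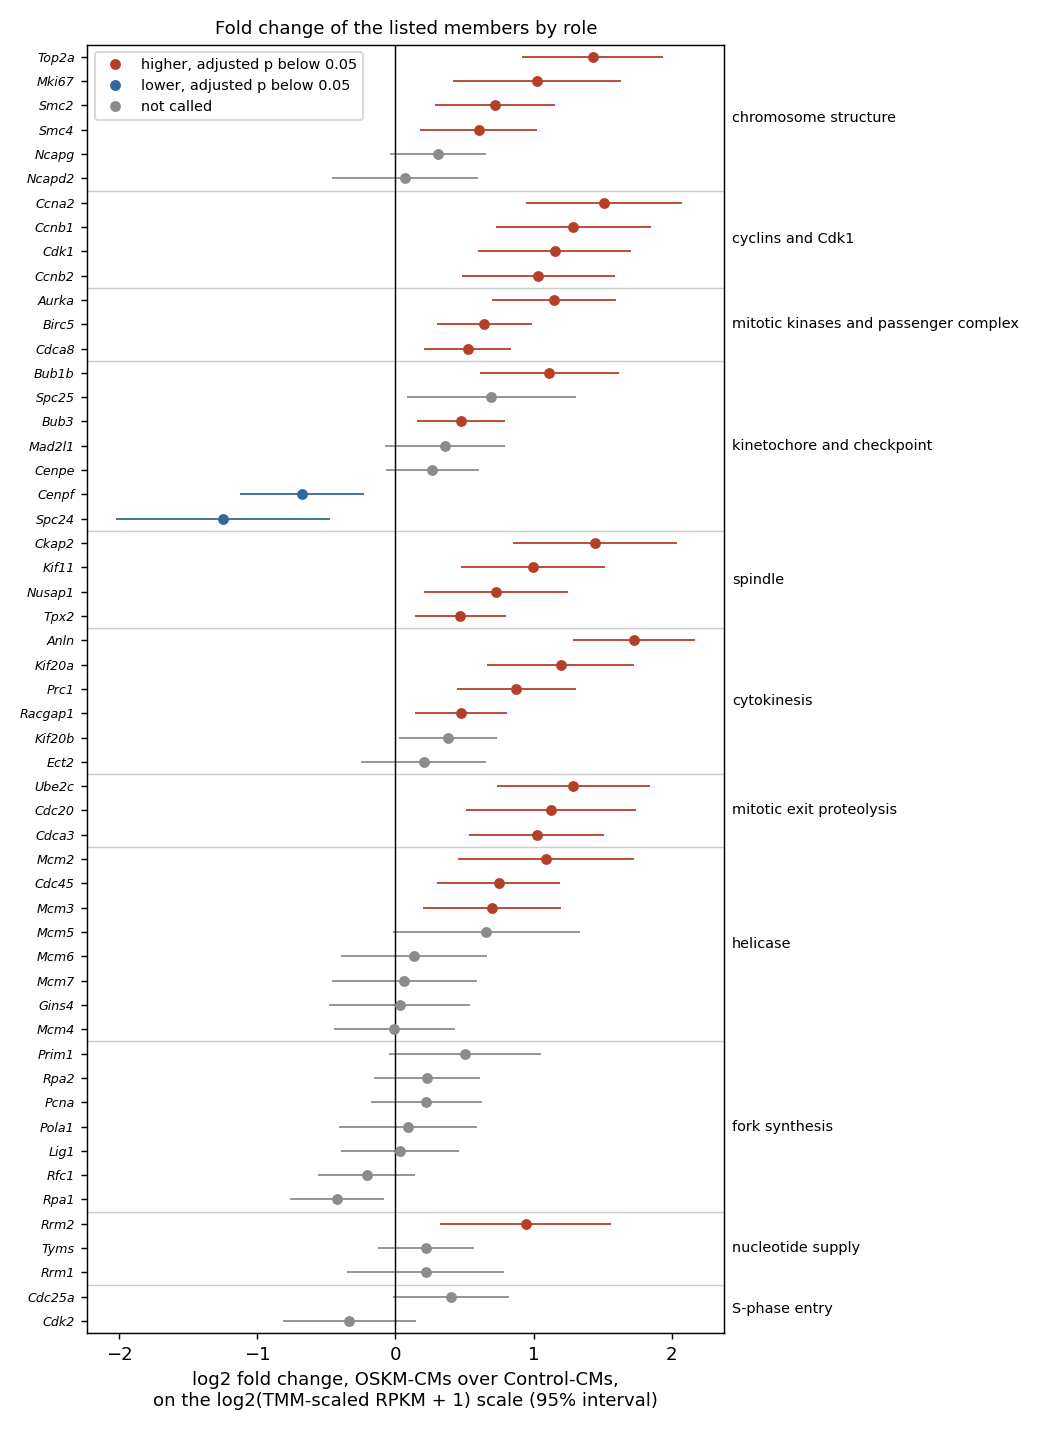
Log2 fold change of OSKM-CMs over Control-CMs for the 53 listed members, grouped by role, on the log2(TMM-scaled RPKM + 1) scale, with lines for 95% intervals and colour for the call. Rises fill the mitosis roles at the top, Cenpf and Spc24 fall, and most replication intervals cross 0.

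By level, the members called higher were mostly scarce. The median level over mitosis genes was 1.62 RPKM in OSKM-CMs and 0.174 in Control-CMs, and over replication genes 2.37 in OSKM-CMs and 1.60 in Control-CMs. Pcna, Bub3, Rpa1, Rfc1 and Gins4 had the highest levels of the 53 in both groups, between 8.68 and 18.2 RPKM in OSKM-CMs and between 9.18 and 14.4 in Control-CMs, and of these Bub3 alone was called. Spc24 stood at place 37 of the 53 in OSKM-CMs and at place 7 in Control-CMs. The called rises outside the mitosis class, Mcm2, Mcm3, Cdc45 and Rrm2, were among the scarcer replication genes, with control means between 0.702 and 0.867 RPKM.

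**Figure D5:**
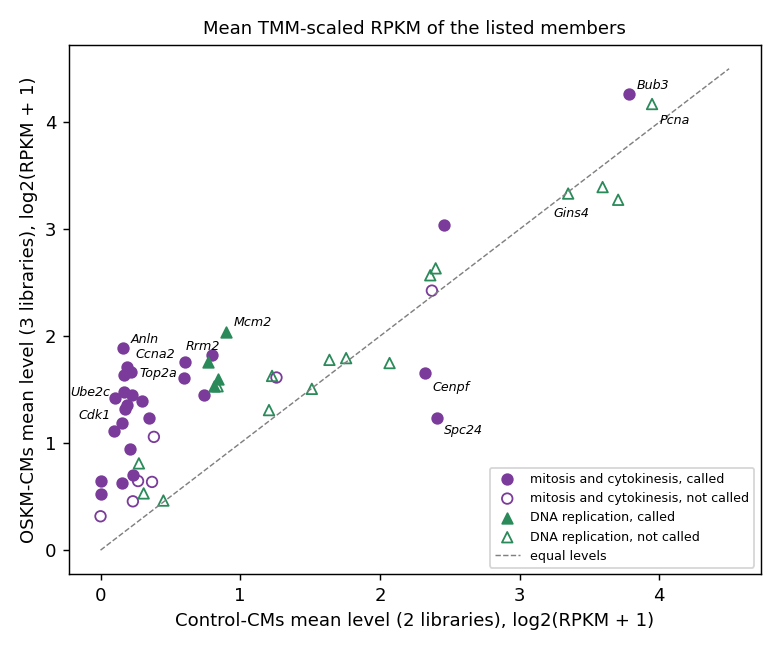
Mean level of each listed member in OSKM-CMs (vertical, 3 libraries) and in Control-CMs (horizontal, 2 libraries), as log2(TMM-scaled RPKM + 1), with filled symbols for called genes and a dashed line of equal levels. Mitosis genes crowd at the left edge well above the line, and the abundant replication genes lie near it.

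The 3 OSKM libraries differed in a patterned way. Replicate 2 held the highest of the 3 levels for 24 of the 33 mitosis genes, replicate 3 for 8 and replicate 1 for 1, and replicate 1 held the lowest for 22. For replication genes replicate 2 was highest for 9 of 20, replicate 3 for 8 and replicate 1 for 3, with replicate 1 lowest for 14. The delivered factors summed to 453, 322 and 304 scaled CPM in OSKM-CMs, against 12.2 and 17.8 in Control-CMs. The factor sum was highest in replicate 1, where the mitosis sum was lowest. With 3 libraries no relation was computed.

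Markers of other heart cells were read out as well, beside 14.8% of all genes called higher and 12.7% lower by limma. Of 18 listed fibroblast markers (20 in the list) 6 rose, among them Postn, Col1a2 and Fstl1, and 1 fell (Fbln1) in limma, where 9 were higher and 1 lower at an unadjusted p below 0.05, and 2 and 1 with limma voom. They summed to 1586, 760.3 and 1634 scaled CPM in OSKM-CMs, against 602 and 336 in Control-CMs. Of 18 endothelial markers 0 rose and 4 fell in limma, among them Aqp1, Kdr and Fabp4 (0 higher and 8 lower at an unadjusted p below 0.05, 0 and 7 with limma voom), and they summed to 724, 337 and 529 scaled CPM in OSKM-CMs, against 1041 and 929 in Control-CMs. Of 12 mural cell markers 3 rose (Cspg4, Acta2 and Pdgfrb) and 1 fell (Abcc9), with sums of 944, 1093 and 1035 scaled CPM in OSKM-CMs, against 1158 and 1106 in Control-CMs. Of 11 listed macrophage and leukocyte markers (24 in the list) 0 were called by limma or limma voom and 1 was higher at an unadjusted p below 0.05, and they summed to 57.2, 20.8 and 87.1 scaled CPM in OSKM-CMs, against 114 and 29.9 in Control-CMs. Of 6 listed epicardial and other markers (13 in the list) S100b rose and Hbb-b1 fell, with sums of 23.1, 21.5 and 32.3 scaled CPM in OSKM-CMs, against 22.2 and 28.2 in Control-CMs. Apart from S100b, which had no control reads, no listed marker had a mean of 0 in either group. Of the OSKM libraries, replicate 2 had the highest mitosis sum, the highest cardiomyocyte and mural cell sums and the lowest fibroblast, endothelial, macrophage and leukocyte, and epicardial and other sums. Over the 3 OSKM libraries the mural cell sums, alone of the marker lists, stood in the same order as the mitosis sums. The mural cell sums were below both controls in every OSKM library, but their markers moved in both directions. Abcc9 averaged 14.2 RPKM in OSKM-CMs and 80.8 in Control-CMs. Acta2 averaged 225 in OSKM-CMs and 57.7 in Control-CMs, Cspg4 22.7 and 1.81, and Pdgfrb 8.47 and 4.17. The sums thus do not describe each marker. The part of other cell types in the mitosis rises was not tested.

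Further genes of the same processes were read out from lists that share no gene with the members and were likewise chosen by name. Earlier results of these data were known when these lists were made, so they are no independent check. Of 47 listed other mitosis and cytokinesis genes (83 in the list) 17 rose and 1 fell in limma, and 15 were higher and 2 lower with limma voom, with a median log2 fold change of 0.38 in limma. Over all genes limma called 14.8% higher and 12.7% lower. On the log2(RPKM + 1) scale the largest rises were of Stmn1, a tubulin-binding protein, which averaged 8.55 ± 1.54 RPKM in OSKM-CMs and 2.10 ± 1.06 in Control-CMs, limma adjusted p = 0.00279, and of Cks2, a Cdk1 partner, which averaged 5.80 ± 2.62 RPKM in OSKM-CMs and 1.17 ± 0.339 in Control-CMs, limma adjusted p = 0.0108. The tubulin Tubb5 followed with 55.1 ± 12.7 RPKM in OSKM-CMs and 18.3 ± 1.32 in Control-CMs, limma adjusted p = 0.00179. By ratio of mean levels these 3 were 4.07-fold, 4.95-fold and 3.01-fold higher, and scarcer called genes, picked out after their values were seen, had larger ratios. Kif4, a chromosome-bound motor, had 50 reads in OSKM-CMs, against 2 in Control-CMs, a depth-scaled ratio of 16.7 (95% exact counting interval 4.39 to 142). Hmmr, a spindle protein, had 70 reads in OSKM-CMs, against 0 in Control-CMs, 15.6-fold higher with the controls together given 3 reads. The 95% exact counting interval of its ratio began at 12.4. Pttg1, the securin that holds separase until anaphase, fell (17.9 ± 0.983 RPKM in OSKM-CMs and 37.7 ± 4.14 in Control-CMs, limma adjusted p = 0.00137). In both controls 20 of the 47 had at least 1 CPM, and of these 2 rose and 1 fell, with a median of -0.07. Among all genes that met this 13.0% were called higher and 13.8% lower, with a median of -0.01. The other 15 rises, those of Kif4 and Hmmr included, were among the 27 genes that one or both controls read below 1 CPM. Of all 1016 such genes 352 were called higher. Of 46 listed other replication genes (63 in the list) 0 rose and 3 fell in limma, with a median of 0.20, where 5 were higher and 5 lower at an unadjusted p below 0.05, and 2 and 4 with limma voom. The falls were of the uracil glycosylase Ung (1.26 ± 0.538 RPKM in OSKM-CMs and 5.36 ± 1.48 in Control-CMs, limma adjusted p = 0.00439), the smallest RPA subunit Rpa3 (4.01 ± 1.28 RPKM in OSKM-CMs and 9.99 ± 0.337 in Control-CMs, limma adjusted p = 0.00663) and the dUTP hydrolase Dut (4.49 ± 1.44 RPKM in OSKM-CMs and 9.75 ± 1.17 in Control-CMs, limma adjusted p = 0.0141).

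Of 18 listed transcription regulators of the cell cycle (24 in the list) 2 rose and 2 fell (11.1% each), with a median of -0.14, and these shares are near those over all genes. Mybl1, the A-Myb factor, was at 2.97, 2.99 and 2.92 RPKM in OSKM-CMs, against 0.240 and 0.121 in Control-CMs, with no overlap (16.4-fold, limma log2 fold change 1.75, SE 0.17, adjusted p = 0.000544). In both controls 17 of the 18 had at least 1 CPM. Mybl1 did not, and such a gene needed at least 1 OSKM library at 1 CPM to be listed. E2f3, an activator E2F, averaged 4.34 ± 0.750 RPKM in OSKM-CMs and 1.92 ± 0.251 in Control-CMs, limma adjusted p = 0.0129. The repressor E2f6 fell (24.8 ± 2.35 RPKM in OSKM-CMs and 43.3 ± 2.16 in Control-CMs, limma adjusted p = 0.00393), as did the pocket protein Rbl2 (5.82 ± 0.200 RPKM in OSKM-CMs and 8.45 ± 0.681 in Control-CMs, limma adjusted p = 0.0413). E2f1, E2f2, E2f7, E2f8, Foxm1 and Mybl2 had no row and were not analysed here. The 3 NF-Y subunits, which bind CCAAT, were listed and not called. Nfya averaged 0.709 ± 0.275 RPKM in OSKM-CMs and 1.46 ± 0.866 in Control-CMs, Nfyb 2.22 ± 0.481 RPKM in OSKM-CMs and 3.12 ± 0.701 in Control-CMs and Nfyc 14.7 ± 1.05 RPKM in OSKM-CMs and 15.9 ± 1.04 in Control-CMs.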

How the data were processed

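RNA from 5 libraries of isolated cardiomyocytes was compared, 3 of OSKM-CMs and 2 of Control-CMs, as the titles and treatment labels group them. Per the submitters' processing notes, CASAVA 1.8.2, FastQC, Trimmomatic, STAR 2.5.3, HTSeq and the build mm9 were used, and the annotation and strand setting are not given in the sources used here. The deposited table gives RPKM per library, a unit the authors did not name in the header and which was read from the values. It also holds the authors' log2 fold change and average log2 abundance, their likelihood-ratio score, and their p-value and FDR. All per-library columns matched samples. The file gives no coordinates.

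RPKM values of a gene are whole multiples of what 1 read is worth in a library. Whole reads were recovered for 12446 genes (100%, within 0.0001 reads), with the common factor of 440 genes settled from the authors' average abundance, and they summed to the library totals within 2 reads. TMM factors (30% of ratios and 5% of abundances trimmed) were computed from these reads and ranged from 0.798 to 1.14. In limma 3.58.1 under R 4.3.3, log2(scaled RPKM + 1) of all 12446 genes was modelled by group, with abundance trend and robust variance, 2-sided, with Benjamini-Hochberg adjustment at 0.05. No minimum level was set, since it would keep low members only through OSKM-CMs. Data were also simulated, with 12246 of 12446 genes unchanged and the same dispersion for every gene. There the fit called 94.5% of genes raised 4-fold, 65.3% of those lowered to 0.25, 17.6% of those raised 2-fold and 13.3% of those lowered to 0.5, and 2 of 12246 unchanged genes. Far fewer genes changed there than were called here, so these rates need not hold for the members.

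The members and lists were chosen with earlier results of these data known. All listed members were named. Up to 3 called members of each role with the largest change, with Mki67, Cdk1, Pcna and every called member that fell, were given in each library, and up to 3 called genes per direction were named from each other list. Kif4 and Hmmr were named beyond this rule. Set tests were not run. Alternatives were another number added before logs, 2 filters on low values, other scalings, limma voom on whole reads, no trend or robust variance, and leaving out each library. Promoter entries came from the RefSeq table, and exon overlaps from GENCODE M21, both of GRCm38.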

Additional observations from a re-analysis of the deposited data

How the results depend on the processing

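The direction of the mitosis and replication medians held in every alternative run, and 9 mitosis members (Top2a, Ccna2, Ccnb1, Aurka, Bub1b, Ckap2, Kif20a, Anln and Ube2c) were called in every one fitted. With 0.1 added before logs 1 mitosis gene was lower and the mitosis median log2 fold change was 2.00. With 5 added 2 replication genes were higher and the mitosis median was 0.28. A mean RPKM of at least 1 left 14 mitosis genes called higher of 18, with a median of 1.08. The calls of Tpx2, Nusap1, Racgap1, Mcm3 and Rrm2 were lost with 5 added, and those of Nusap1 and Spc24 with 0.1 added. With no trend and no robust variance the calls of Smc4, Bub3 and Nusap1 were lost, and at a mean RPKM of at least 1 that of Mcm3. Library totals alone gave 0 mitosis genes lower, 7 replication genes higher, 4149 genes higher and 683 lower over the table, and medians of 0.95 for mitosis and 0.48 for replication. limma voom on whole reads called 2 replication genes higher and 1 lower, with a mitosis median of 2.55. Leaving out each library in turn gave 13 to 17 mitosis genes higher and 0 to 1 lower, 0 to 4 replication genes higher, and 1217 to 1672 genes higher and 984 to 1490 lower over the table. Without Control-CMs replicate 3, as without Control-CMs replicate 5, 0 replication genes were called higher. Fewer libraries also mean fewer calls over all genes. In every other case that changed, the cause was not tested. No paired analysis was possible because just 1 replicate number occurs in both groups. Mitosis genes with a median of 5 control reads leave folds imprecise. A 2-fold rise was called in 17.6% of simulated cases, a rate that need not hold for the members. Fewer genes changed there than were called here, and the changed genes were not all scarce.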

Other observations

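Replication-dependent histone genes, whose transcripts peak in S phase and mostly lack poly(A) tails, were not among the members. Of 31 listed genes of the Hist clusters 7 rose and 2 fell in limma (22.6% and 6.45%), with a median log2 fold change of 0.17, beside 14.8% higher and 12.7% lower over all genes. In both controls 22 of the 31 had at least 1 CPM, and of these 2 rose and 2 fell, with a median of 0.09. Among all genes that met this 13.0% were called higher and 13.8% lower. The other 5 rises were among the 9 genes that one or both controls read below 1 CPM. Of all 1016 such genes 352 were called higher. With limma voom 4 were higher and 1 lower, and the authors' deposited table called 5 higher and 3 lower at an FDR below 0.05. Hist1h2ab averaged 3.00 RPKM in OSKM-CMs and was at 0 in both controls, Hist1h3c averaged 6.01 in OSKM-CMs and 1.03 in Control-CMs, and Hist1h4a 4.81 in OSKM-CMs and 1.20 in Control-CMs. Hist1h4h fell, at 71.8 RPKM in OSKM-CMs and 113 in Control-CMs, as did Hist1h4i, at 3.82 in OSKM-CMs and 9.96 in Control-CMs. They summed to 505, 509 and 532 CPM on the TMM scale in OSKM-CMs, against 364 and 449 in Control-CMs, with no overlap. These genes have near-identical copies among which reads could be split, so values of single ones are uncertain.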
